A study of Homo sapiens with 4 samples.

Results

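The mitochondrial ribosome genes were followed in human blastoids, which are stem cell models of the blastocyst, and in the cell aggregates from which they form. The set was taken by symbol, as every gene named MRPL or MRPS plus a number and, in some cases, a letter from A to E, which gave 78 of the 36601 genes counted. Of these, 51 code for proteins of the large ribosomal subunit (among them MRPS18A and MRPS30, in spite of their symbols) and 26 for proteins of the small subunit. The last, MRPS36, is now assigned to the 2-oxoglutarate dehydrogenase complex, the enzyme that consumes α-ketoglutarate (αKG), and not to the ribosome.

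Mitochondria have their own ribosome, which translates the few mRNAs of the mitochondrial genome into core subunits of the respiratory chain and the ATP synthase. Its ribosomal RNAs are transcribed inside the organelle, whereas all of its proteins are encoded in the nucleus, made in the cytosol and imported. Part of them have counterparts in the bacterial ribosome, and the rest were added in the mitochondrial lineage. In the early embryo, the trophectoderm (TE) is the outer epithelium that forms the placenta, and the epiblast (Epi) is the inner group of pluripotent cells that forms the fetus.

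All cells came from 1 line of naive human embryonic stem cells, H9 (WA09). Cells were cultured in low oxygen, aggregated in microwells and induced with PD0325901, A83-01, LIF, LPA and Y27632, and blastoids were later kept in LPA and Y27632 alone, at every dose. Treated cultures received 4 mM dimethyl α-ketoglutarate (dm-αKG), an ester of αKG that enters cells, during the first 40 h, and their controls received 0 mM. Collection was at 40 h for aggregates and at 120 h for blastoids, which therefore spent all the time from 40 h to 120 h without the compound.

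Counts are unique molecular identifiers (UMIs), 1 per captured RNA molecule, and were summed over the cells of each hashtagged culture in each capture run, called an arm. Run 1 held 1 arm each of blastoids at 4 and 0 mM and of aggregates at 4 and 0 mM, and run 2 held 1 arm each of blastoids at 4 and 0 mM. After filtering, 12647 cells remained, with 426 to 4974 cells and 12275317 to 84756607 UMIs per arm. The share of hashtagged single cells that passed the filter was higher at 4 mM in blastoids (73.1% against 44.8% in run 1, 89.0% against 81.0% in run 2) and lower at 4 mM in aggregates (55.7% against 71.7%). The 2 runs had 28 cell barcodes in common, of 9431 and 15133. The blastoids dissociated were those with 1 cavity, and by the study's own description the fragile TE cells were lost more readily than others in that step.

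Blastoid cells were called TE-like where UMIs of KRT8, KRT18, GATA3 and CLDN4 together outnumbered those of POU5F1, DPPA5, DPPA4, L1TD1 and TDGF1, and Epi-like otherwise. This gave 49 and 170 TE-like cells at 4 mM and 18 and 181 at 0 mM in runs 1 and 2, and no more than 12 cells of any TE-like or Epi-like sum lay near the border. In aggregates 2 cells met the TE-like rule at 4 mM and 1 at 0 mM, so aggregates were not split. The 10 trophectoderm markers that the rule does not use (GATA2, KRT19, TFAP2A, HAND1, DLX3, CDX2, KRT7, VGLL1, PGF and ABCG2) summed to 902 to 2039 CPM (a gene's UMIs scaled to equal total UMIs in each sum) in the TE-like sums and 33.2 to 39.6 CPM in the Epi-like sums, with HAND1 and VGLL1 at 0 in the run 1 Epi-like sum at 0 mM. The 11 further epiblast markers summed to 310 to 474 CPM in TE-like cells and 1288 to 1559 CPM in Epi-like cells, with KLF17 and SOX2 at 0 in the smallest TE-like sum. They were NANOG, SOX2, KLF17, FGF4, UTF1, DNMT3L, SUSD2, GDF3, PRDM14, SALL4 and LIN28A. In the edgeR test between the classes described below, 9 of the 11 were lower in TE-like cells and 1 was higher. The 10 primitive endoderm markers stood at 179 to 322 CPM in TE-like cells and 27.7 to 37.2 CPM in Epi-like cells, with NID2 at 0 in 3 of the TE-like sums and RSPO3, APOA1 and FOXA2 at 0 in the run 2 sum at 0 mM. The 5 amnion markers stood at 4.74 to 8.05 CPM in TE-like cells and 6.22 to 9.36 CPM in Epi-like cells, with GABRP at 0 in all 4 TE-like sums. These near-equal sums hide opposite differences. Of the 3 amnion markers that could be tested between the classes in edgeR, 1 was higher in TE-like cells (log2 6.14) and 1 was lower. The part of endoderm or amnion marker RNA in the results was not tested.

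All 78 genes were detected in each of the 10 sums, and together they took 0.836 to 0.886% of UMIs in TE-like cells, 0.874 to 0.942% in Epi-like cells and 0.969 to 1.04% in aggregates. The best counted were MRPL51, with 116300 UMIs over all kept cells, MRPL18 (85355), MRPS23 (79763), MRPL47 (77836) and MRPL20 (72626). MRPL53 had only 325 UMIs, of which 1 to 6 fell in each TE-like sum, and its gene overlaps CCDC142 on the same strand. Since only 3′ ends were counted, levels are compared between samples and not between genes. Because counts were summed over cells, fewer cells with a transcript and less transcript per cell were not told apart here.

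Whether dm-αKG moved the whole set was first read from the summed counts. The sum was lower at 4 mM in all 5 pairs of arms, with differences of -7.20 to -2.07%. In TE-like cells it was 8422 and 8359 CPM at 4 mM in runs 1 and 2, against 8857 and 8536 CPM at 0 mM. In Epi-like cells it was 8738 and 8823 CPM at 4 mM, against 9416 and 9109 CPM at 0 mM. In aggregates it was 9688 CPM at 4 mM and 10431 CPM at 0 mM. The arms at 4 mM thus lay below both arms at 0 mM within each blastoid class, and the aggregates lay above every blastoid sum.

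The ratios of 4 to 0 mM were 0.951 (95% interval 0.918 to 0.985) and 0.979 (0.962 to 0.997) in TE-like cells, 0.928 (0.922 to 0.934) and 0.969 (0.965 to 0.972) in Epi-like cells and 0.929 (0.924 to 0.933) in aggregates. With TMM factors of the 8 blastoid sums, the changes were -1.08 and -1.74% in TE-like cells and -9.80 and -1.96% in Epi-like cells of runs 1 and 2, so that their size, though not their sign, depended on the scaling. These exact intervals cover counting error only, and no p is given for a sum over genes chosen as a set. In plain CPM the distance between doses was larger in run 1 in both classes, and with the TMM factors in Epi-like cells only. Run 1 was the run whose 0 mM blastoids kept the smallest share of cells. With all hashtagged single cells in place of filtered ones, the run 1 difference in Epi-like cells was -2.80% in place of -7.20%. The part of the filter in these differences was otherwise not tested.

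**Figure D1:**
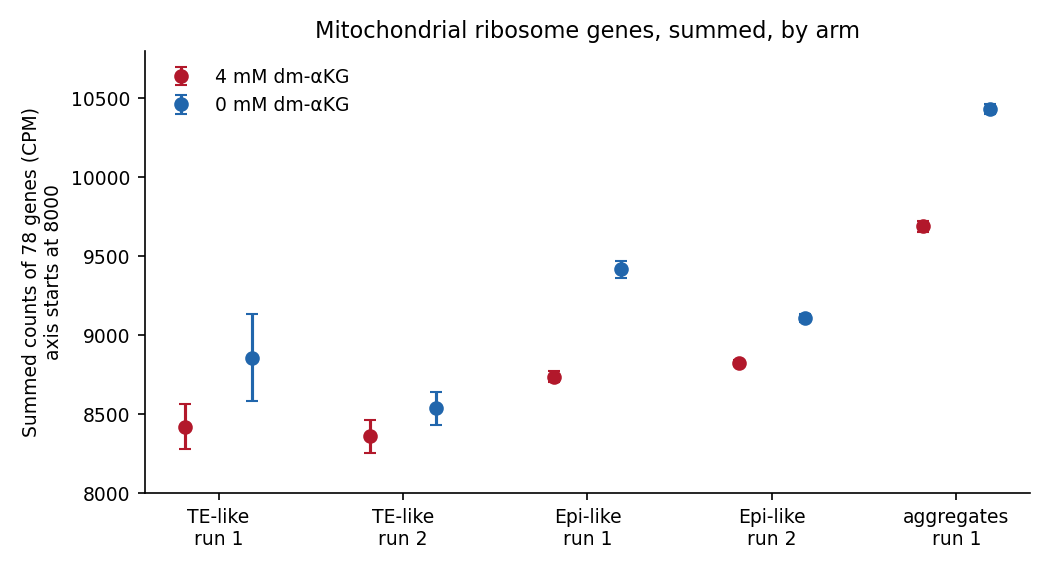
Summed counts of the 78 mitochondrial ribosome genes (CPM, vertical axis cut well above 0) in each class and run, with 4 mM dm-αKG (red) left of 0 mM (blue) and bars for the exact 95% Poisson interval. Each red point lies below its blue neighbour, and the aggregates, at 9688 and 10431 CPM, lie above all blastoid sums.

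Differences between individual genes by dose were tested on the arm sums with edgeR's quasi-likelihood test, with the run as a term, over all genes, at a Benjamini-Hochberg adjusted p of 0.05. There were 2 arms per dose, each a separately hashtagged culture of 1 cell line. The run term left 1 residual degree of freedom, and edgeR drew each gene's variance towards a trend fitted over all genes. The prior degrees of freedom were 26.3 in TE-like and 35.8 in Epi-like cells. The p-values thus rest mostly on this shared estimate and little on a gene's own spread between arms. In TE-like cells, 77 of the 78 genes (all but MRPL53) had enough counts to be tested and none passed in either direction, beside 0.648% of all 9104 genes tested that were higher and 0.791% that were lower. At an unadjusted p under 0.05, 0 were higher and 4 lower, beside 4.14% of all genes that were higher and 5.05% that were lower at that threshold, and DESeq2 also called 0. The median log2 difference was -0.08, with 50 of 77 genes below 0, against a median of -0.00 over all genes, and the median standard error of a single gene was 0.19. The 10 trophectoderm markers stood at 2039 and 1727 CPM at 4 mM in runs 1 and 2 in the same cells, against 902 and 1169 CPM at 0 mM. Of these 10, edgeR called 4 higher and 0 lower. The 4 trophectoderm genes of the class rule lay the other way, at 11452 and 11105 CPM at 4 mM, against 14369 and 11545 CPM at 0 mM. None of those 4 passed. The part of either list in the values of the set was not tested.

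The 4 genes with an unadjusted p under 0.05 in TE-like cells, a number close to the share over all genes, were MRPS2, MRPL12, MRPL41 and MRPS24, and their values are given as a description. MRPS2, a small-subunit protein with a bacterial counterpart, had 30.3 and 39.6 CPM at 4 mM in runs 1 and 2, against 46.0 and 62.4 CPM at 0 mM. Its values did not overlap between doses, with a log2 difference of -0.66 ± 0.21 (SE, n = 2 arms per dose, edgeR adjusted p = 0.153). MRPL12, a protein of the stalk that recruits translation factors, had 111 and 113 CPM at 4 mM and 145 and 145 CPM at 0 mM, with an edgeR adjusted p of 0.408. MRPL41 (199 and 244 CPM at 4 mM, against 274 and 278 CPM at 0 mM) and MRPS24 (170 and 166 CPM at 4 mM, against 219 and 196 CPM at 0 mM) did not overlap between doses either. The widest gap upwards was that of MRPL24, at 0.52 ± 0.26 (edgeR adjusted p = 0.557), which rests on 8 UMIs in the run 1 arm at 0 mM.

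In Epi-like cells, whose sums were deeper in every arm, 7 of 78 genes were lower at 4 mM and none was higher. Over all 17014 genes tested, 3.49% were lower and 5.2% higher. At an unadjusted p under 0.05, 21 were lower and 2 higher, beside 10.6% of all genes that were lower and 11.6% that were higher. The median log2 difference over the set was -0.06, with 58 genes below 0, against -0.01 over all genes. Of the large subunit 4 of 51 genes passed, and of the small subunit 3 of 26. Proteins with a bacterial counterpart made up 6 of the 7, out of 46 such genes, and the mitochondria-specific proteins 1, out of 31. In the same cells 5 of 11 epiblast markers (KLF17, LIN28A, NANOG, SALL4 and SOX2) were higher at 4 mM in edgeR. The 4 trophectoderm genes of the class rule summed to 328 and 295 CPM at 4 mM in runs 1 and 2, against 232 and 228 CPM at 0 mM. Of these 4 genes, 2 were higher and 1 lower in edgeR. The 10 trophectoderm markers outside the rule lay the other way, at 33.2 and 36.4 CPM at 4 mM, against 35.1 and 39.6 CPM at 0 mM. Of the 9 that were tested, 0 passed. The part of these differences in the values of the set was not tested.

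Among large-subunit genes, MRPL41, a mitochondria-specific protein, had 230 and 252.4 CPM at 4 mM in runs 1 and 2, against 295 and 286 CPM at 0 mM (log2 -0.27 ± 0.07, edgeR adjusted p = 0.00631). MRPL2, whose bacterial counterpart lies near the peptidyl transferase centre, had 46.9 and 51.5 CPM at 4 mM and 58.0 and 58.2 CPM at 0 mM. Both arms at 4 mM were below both arms at 0 mM for these genes. MRPL34 had 121 and 123 CPM at 4 mM, against 143 and 141 CPM at 0 mM, and MRPL36 had 66.7 and 74.2 CPM, against 77.0 and 84.5 CPM. Their doses did not overlap either, and both are short proteins with bacterial counterparts.

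Among small-subunit genes, MRPS12, whose bacterial counterpart lies at the decoding site, had 157 and 171 CPM at 4 mM and 202 and 194 CPM at 0 mM (log2 -0.27 ± 0.07, edgeR adjusted p = 0.00633). MRPS17, an rRNA-binding protein, had 121 and 130 CPM at 4 mM, against 152 and 149 CPM at 0 mM. MRPS2 had 46.6 and 52.0 CPM at 4 mM and 57.2 and 58.4 CPM at 0 mM. Again no arm at 4 mM reached an arm at 0 mM. Since the 7 genes called in Epi-like cells were picked by the test on these same arms, this separation is a description and adds no support. The share of all genes without overlap was not counted. For each of the 7 genes the 4 mM value was lower in run 1 than in run 2, and the log2 differences were -0.36 to -0.20 in run 1 and -0.19 to -0.17 in run 2.

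MRPS17 shares its strand with the overlapping NIPSNAP2 and a readthrough gene, and MRPL2 with another annotated gene, so part of their reads cannot be assigned with certainty. The 7 calls rest on the run term, since edgeR called 0 without it. Leaving out an arm was possible only without the run term as well, which also gave 0 calls for each of the 4 arms, so that the weight of a single arm was not tested. DESeq2 called 1, MRPL41.

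**Figure D2:**
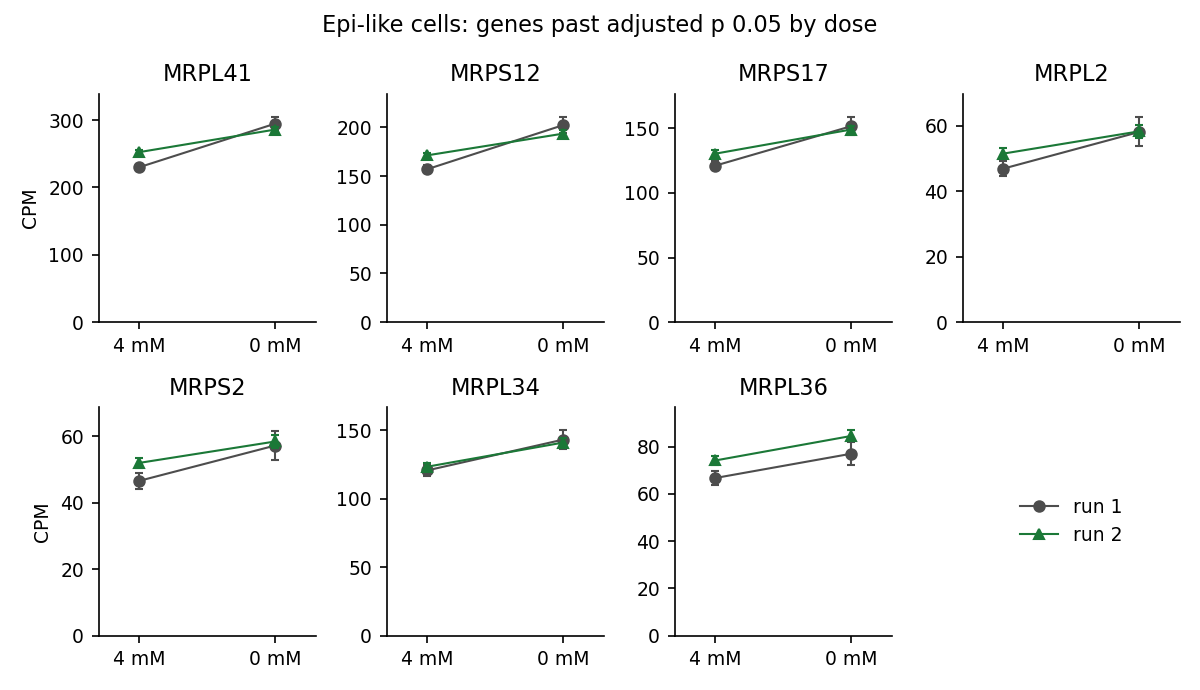
CPM (vertical axes, from 0) of the 7 genes past an edgeR adjusted p of 0.05 in Epi-like cells, at 4 mM dm-αKG on the left and 0 mM on the right, with 1 line per run and bars for the exact 95% Poisson interval. Every line is lower on the 4 mM side, and MRPL41 stood at 230 and 252.4 CPM there, against 295 and 286 CPM at 0 mM.

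The difference between the dose effects of TE-like and Epi-like cells was tested as a term of its own. None of the 78 genes passed in edgeR, beside 0.38% of 13174 genes that were higher and 0.395% that were lower, and at an unadjusted p under 0.05 there were 3 higher and 1 lower, beside 3.36% and 3.55% of all genes. The 7 genes called in Epi-like cells are therefore not shown to respond differently in TE-like cells. In TE-like cells their log2 differences were negative in both runs for 6 of the 7 (MRPS12 being 0.09 in run 1 and -0.24 in run 2).

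MRPS36, of the complex that oxidises αKG, had 83.0 and 109 CPM in TE-like cells at 4 mM in runs 1 and 2, against 129 and 85.5 CPM at 0 mM. The runs went in opposite directions and the doses overlapped (log2 -0.04 ± 0.20, edgeR adjusted p = 0.982). In Epi-like cells it had 142 and 147 CPM at 4 mM and 161 and 151 CPM at 0 mM (log2 -0.11 ± 0.06, edgeR adjusted p = 0.344). In aggregates it had 172 CPM at 4 mM and 170 CPM at 0 mM.

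MRPL23, which lies near the exit of the ribosome's peptide tunnel, is the chromosomal neighbour of the imprinted noncoding RNA H19. H19 was higher at 4 mM in TE-like cells by a log2 of 2.12 ± 0.17 (edgeR adjusted p = 2.98e-09). MRPL23 had 56.4 and 52.5 CPM in TE-like cells at 4 mM and 70.1 and 66.4 CPM at 0 mM. These values lay the other way and did not overlap, but the difference of -0.35 ± 0.19 did not pass (edgeR adjusted p = 0.615).

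Aggregates allowed no test, because each dose had 1 arm. Of the 76 genes at 20 CPM or more in both arms, 47 had a ratio whose exact 95% interval lay below 1 and 9 one whose interval lay above 1. Over all 4886 genes at that level, 37.1% lay below and 24.8% above. The median log2 ratio of the set was -0.12 and that of all genes -0.03. The large subunit had 33 genes below and 4 above of 49, the small subunit 14 below and 5 above of 26.

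The lowest ratios were those of MRPS33 (0.732, interval 0.692 to 0.774, with 65.4 CPM at 4 mM and 89.3 at 0 mM) and MRPL1 (0.745, with 49.7 and 66.7 CPM), a protein of the stalk at the tRNA exit side. The large-subunit gene MRPL55 (0.766), the small-subunit gene MRPS17 (0.792) and MRPL52 (0.795) followed. MRPL52 had 187 CPM at 4 mM and 236 CPM at 0 mM. The highest ratios were those of MRPL48 (1.37, interval 1.29 to 1.47, with 64.1 CPM at 4 mM and 46.6 at 0 mM) and MRPL49 (1.24, with 38.7 and 31.1 CPM), both mitochondria-specific proteins of the large subunit. Small-subunit genes MRPS25 (1.13), MRPS35 (1.11) and MRPS24 (1.08) came next.

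Of the 7 genes called in Epi-like blastoid cells, MRPS17 was thus among the lowest in aggregates, whereas MRPL41 had 318 CPM at 4 mM and 305 CPM at 0 mM there. Aggregates at 4 mM also had a higher median mitochondrial share of UMIs per cell (5.16% against 4.19%), and the 13 mitochondrially encoded mRNAs summed to 52725 CPM at 4 mM and 44154 CPM at 0 mM. With mitochondrially encoded genes left out of the totals, the summed difference in aggregates was -6.28% in place of -7.12%, and 46 genes lay below and 9 above.

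**Figure D3:**
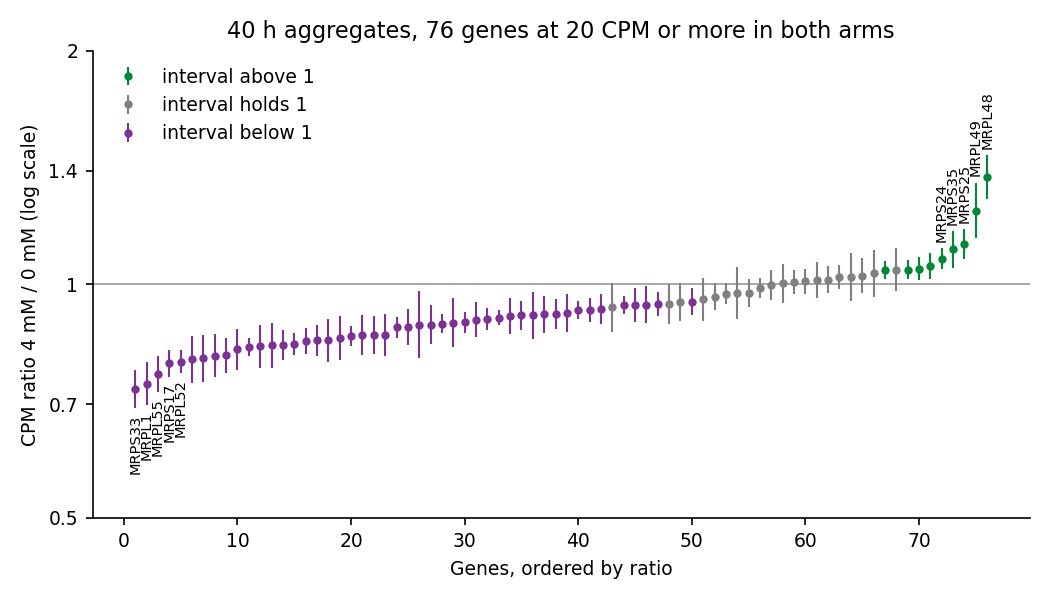
Ratio of CPM at 4 mM to CPM at 0 mM in 40 h aggregates (vertical axis, log scale) for the 76 genes at 20 CPM or more in both arms, ordered by ratio, with exact 95% intervals. Most genes lie below 1 (47 with the whole interval below, purple), and MRPL48 and MRPL49 stand highest at 1.37 and 1.24 (green, interval above 1).

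Between 40 h and 120 h, blastoid cells were set against the aggregates of the same run and dose, again with 1 arm each and no test. In Epi-like cells the summed counts were lower than in aggregates, with differences of -9.81% at 4 mM and -9.73% at 0 mM. In TE-like cells the differences were -13.1% at 4 mM and -15.1% at 0 mM. These are plain CPM, and no other scaling was run for them. Medians of the log2 ratio were also taken over genes at 20 CPM or more in both arms. For the set they were -0.14 and -0.24 in TE-like cells at 4 and 0 mM, against -0.07 and -0.15 over all genes. In Epi-like cells they were -0.09 and -0.13, against 0.003 and -0.08 over all genes. At 4 mM the TE-like over aggregate ratio was 0.818 (interval 0.794 to 0.843) for the small subunit and 0.908 (0.889 to 0.928) for the large subunit. At 0 mM it was 0.781 (0.738 to 0.825) for the small subunit and 0.889 (0.855 to 0.923) for the large subunit, so that the small-subunit interval lay below that of the large subunit at both doses. In Epi-like cells against aggregates it did so at 4 mM (0.868, interval 0.861 to 0.876, and 0.923, interval 0.917 to 0.929), whereas at 0 mM the intervals overlapped (0.898, interval 0.888 to 0.908, and 0.904, interval 0.897 to 0.912). Epi-like and TE-like cells share the aggregate arm here, so these are not separate measurements of the aggregates. The intervals cover counting error only, and a difference between the subunits was not tested. Single genes spread widely in TE-like cells at 4 mM, with log2 ratios of -1.08 to 0.48 in the small subunit and -0.96 to 0.94 in the large subunit.

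In Epi-like cells against aggregates at 4 mM, 45 of 76 genes lay below 1 and 11 above, beside 36.3% and 37.6% of all genes. The lowest were MRPS25 (78.2 CPM in Epi-like cells and 127 CPM in aggregates, ratio 0.618), MRPL35 (0.678), MRPS12 (0.704), MRPL12 (0.707) and MRPL34 (0.715). MRPL44, a protein related to the ribonuclease III family, and MRPL1 were the highest at 1.21 each. At 0 mM, 45 of 77 lay below and 6 above, beside 42.3% and 21.6% of all genes. There MRPS14 (34.3 CPM in Epi-like cells and 53.7 CPM in aggregates, ratio 0.638), MRPL35 (0.667), MRPS25 (0.730), MRPL52 (0.749) and MRPL20 (0.749) were lowest, and MRPL49 (1.23), MRPL48 (1.15) and MRPL18 (1.14) highest.

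In TE-like cells against aggregates at 4 mM, 31 of 76 genes lay below 1 and 10 above, beside 32.7% and 23.8% of all genes. At 0 mM, where the TE-like sum held only 456611 UMIs, 22 of 75 lay below and 5 above, beside 23.5% and 13.2%. The genes furthest above were MRPL52 (1.91 at 4 mM and 1.67 at 0 mM), MRPL40 (1.45 and 1.57) and MRPS15 (1.39 and 1.52), and at 4 mM also MRPL33 (1.45) and MRPL28 (1.301). At 0 mM MRPL2 (1.48) and MRPL28 (1.45) stood there too. MRPS23 (0.472) and MRPS36 (0.483) were furthest below at 4 mM, before MRPS25 (0.508), MRPL18 (0.512) and MRPL34 (0.524). At 0 mM they were MRPS25 (0.350), MRPS26 (0.441), MRPL15 (0.449), MRPL18 (0.449) and MRPS18B (0.522).

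The contrast with most genes past the threshold was that between the classes. In TE-like against Epi-like cells of the same 4 arms, with the arm as a term, 23 of 78 genes were higher and 8 lower (29.5% and 10.3%) in edgeR. Over all 13174 genes tested, 22.5% were higher and 25.6% lower. The large subunit had 17 higher and 5 lower of 51, and the small subunit 6 higher and 2 lower of 26. Genes with a bacterial counterpart had 18 higher and 5 lower of 46, and mitochondria-specific genes 5 higher and 2 lower of 31. The class rule is built on 9 other genes, none of them in the set, although cells sorted by it may differ in much else.

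How many genes count as higher depends on how the libraries of the 2 classes are scaled. The fit used trimmed mean of M-values (TMM) factors, which hold the bulk of genes level, and gave a median log2 difference of 0.16 for the set and -0.05 for all genes. On raw UMI totals, an alternative added after seeing the data, the medians were -0.05 and -0.27, and 13 genes were higher and 19 lower (14.5% and 37.2% of all genes). The median of the set lay 0.21 above that of all genes with TMM and 0.22 above it on raw totals. In plain CPM the sum of the set was lower in TE-like cells in all 4 arms, with differences of -3.62 and -5.94% at 4 and 0 mM in run 1 and of -5.25 and -6.29% at 4 and 0 mM in run 2. With TMM scaling the sum was higher in TE-like cells in all 4 arms, by 10.8 and 1.05% at 4 and 0 mM in run 1 and by 11.9 and 11.7% at 4 and 0 mM in run 2, so that its direction depends on the scaling.

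Of the called genes, 12 higher and all 8 lower genes had the same sign in all 4 arms and passed on both scales. Raw totals moved the median over all genes from -0.05 to -0.27, so genes lower with TMM lay further below 0 there. The second scale is therefore a check on the higher genes only. The share of all genes that met both conditions was not counted. As the called genes were picked on these arms, lack of overlap in them is a description only. The levels given for the called genes are TMM-scaled CPM, in the order run 1 at 4 mM, run 1 at 0 mM, run 2 at 4 mM and run 2 at 0 mM. MRPL52, a mitochondria-specific large-subunit protein, had the largest difference upwards, with 380, 402, 296 and 298 CPM in TE-like cells and 156, 168, 139 and 146 CPM in Epi-like cells. The lowest TE-like arm lay well above the highest Epi-like arm, at a log2 difference of 1.16 ± 0.08 (2.23-fold, n = 4 arms, edgeR adjusted p = 7.52e-10). MRPL40, also mitochondria-specific, had 121, 143, 117 and 118 CPM in TE-like cells and 64.5, 74.3, 64.1 and 61.0 CPM in Epi-like cells. It differed by 0.92 ± 0.09 (1.89-fold, edgeR adjusted p = 7.7e-08), again without overlap.

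Other genes higher on both scales had smaller differences. MRPS15, whose bacterial counterpart binds rRNA early in assembly of the small subunit, had 223, 221, 211 and 218 CPM in TE-like cells and 126, 130, 128 and 130 CPM in Epi-like cells. Its within-arm log2 differences lay between 0.72 and 0.82, with no overlap of the classes (edgeR adjusted p = 3.73e-07). MRPL33 had 137, 112, 106 and 116 CPM in TE-like cells, against 67.2, 76.03, 68.8 and 67.0 CPM in Epi-like cells, and overlaps BABAM2 on the same strand, so that its reads are less certain. MRPL28 had 88.0, 109, 90.7 and 92.5 CPM in TE-like cells, against 57.1, 72.3, 62.6 and 64.5 CPM in Epi-like cells, and overlaps PGAP6 in the same way.

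The remaining genes higher on both scales were MRPS10 (log2 0.64 ± 0.10), MRPL2 (0.57 ± 0.10), MRPS9 (0.56 ± 0.10), MRPS14 (0.55 ± 0.12), MRPL36 (0.55 ± 0.09), MRPS18C (0.51 ± 0.10) and MRPL13 (0.48 ± 0.09). All 7 have bacterial counterparts. A further 8 genes with the same sign in all arms passed with TMM only (MRPS18A, MRPL35, MRPL3, MRPS30, MRPS21, MRPL51, MRPL23 and MRPL47), at log2 differences of 0.25 to 0.43. MRPL24 (on both scales), MRPL55 and MRPL21 passed although the run 1 arm at 0 mM had the opposite sign.

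Of the lower genes, MRPL18 had the largest difference. Its bacterial counterpart binds the 5S ribosomal RNA, which the human mitochondrial ribosome lacks. MRPL18 had 167, 150, 167 and 164 CPM in TE-like cells and 302, 352, 301 and 326 CPM in Epi-like cells, so that every TE-like arm was below every Epi-like arm. The log2 difference was -0.96 ± 0.09 (1.94-fold lower, edgeR adjusted p = 2.88e-08). MRPS23, a mitochondria-specific small-subunit protein, had 152, 179, 172 and 188 CPM in TE-like cells and 265, 315, 278 and 296 CPM in Epi-like cells (-0.73 ± 0.08, edgeR adjusted p = 5.83e-07). MRPL17, whose bacterial counterpart sits near the exit of the peptide tunnel, had 111, 114, 117 and 119 CPM in TE-like cells, against 148, 186, 168 and 178 CPM in Epi-like cells. Neither gene overlapped between the classes.

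MRPS36 had 88.0, 132, 121 and 94.3 CPM in TE-like cells and 131, 153, 138 and 140 CPM in Epi-like cells. It was lower in each arm, although the highest TE-like value exceeded the lowest Epi-like value (log2 -0.40 ± 0.10, edgeR adjusted p = 0.00266). The remaining lower genes were MRPL16 (-0.38 ± 0.10), MRPS26 (-0.28 ± 0.10), MRPL34 (-0.27 ± 0.09) and MRPL15 (-0.26 ± 0.10). For MRPS26 and MRPL15 the run 1 arm at 0 mM, with 50 and 32 UMIs in its TE-like cells, lay far below the others. Without the run 2 arm at 4 mM, 16 genes were called higher and 4 lower, and the 20 calls left of the 31 included those of MRPL52, MRPL40, MRPL18, MRPS23, MRPL17 and MRPS36. Without the run 1 arm at 0 mM, MRPS26, MRPL15 and MRPL23 lost their calls, and without the run 2 arm at 0 mM, MRPL15, MRPL21, MRPL23, MRPL34 and MRPL55 did.

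**Figure D4:**
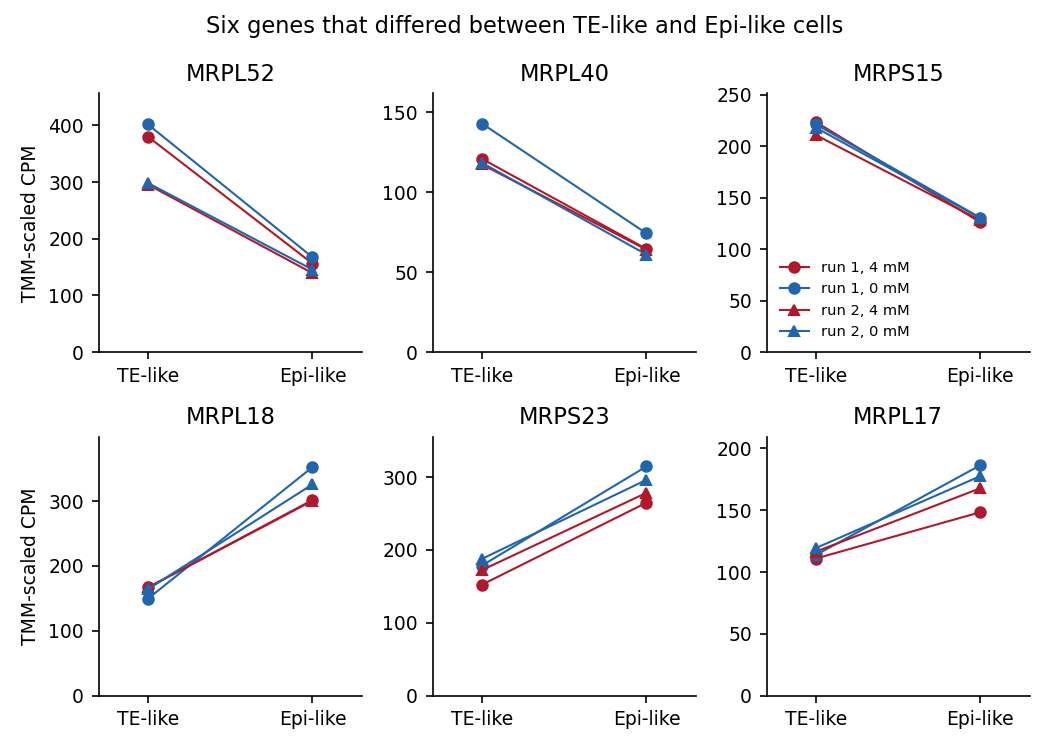
TMM-scaled CPM (vertical axes, from 0) of MRPL52, MRPL40 and MRPS15, higher, and MRPL18, MRPS23 and MRPL17, lower, in TE-like cells (left) against Epi-like cells (right), with 1 line per arm. The lines of all 4 arms run the same way for each gene, with MRPL52 at 296 to 402 CPM in TE-like cells and 139 to 168 CPM in Epi-like cells.

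**Figure D5:**
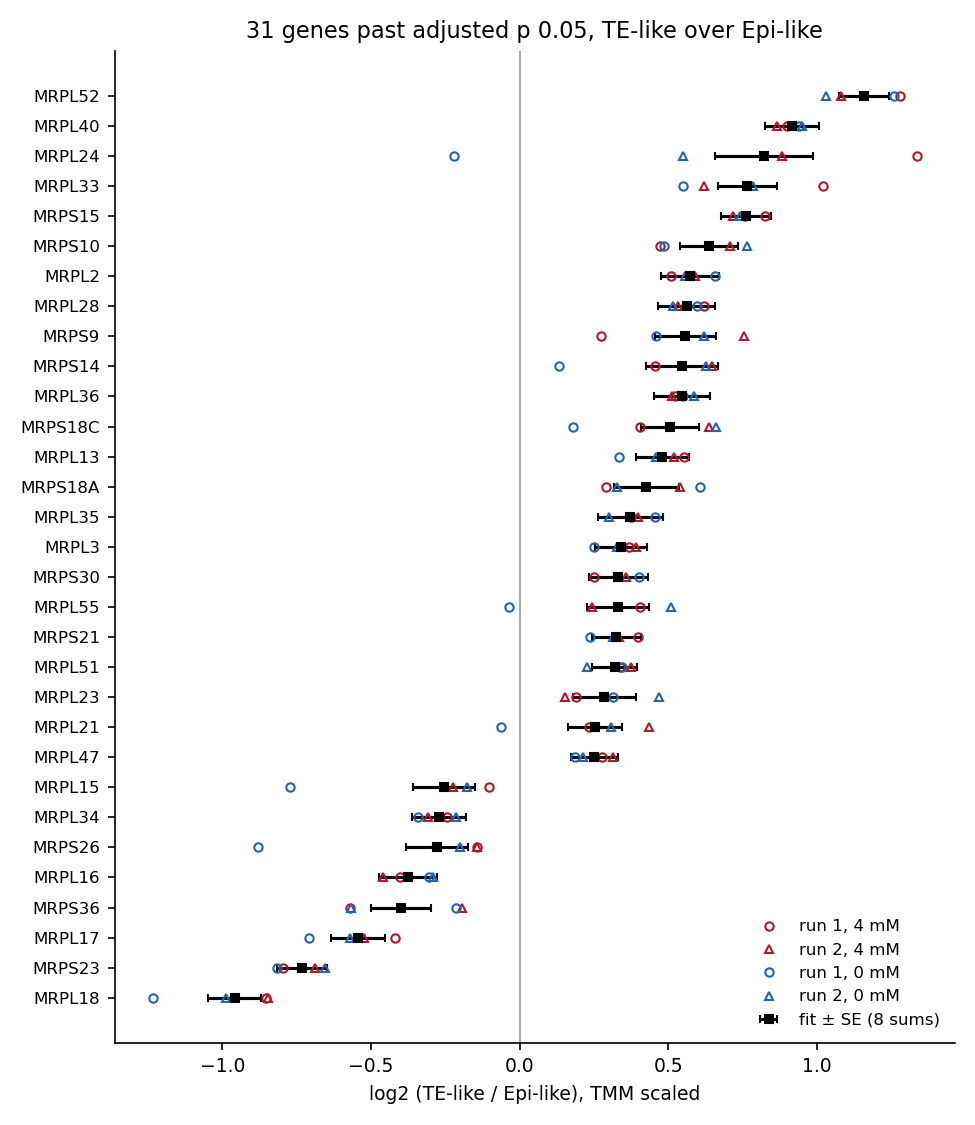
Log2 ratio of TE-like to Epi-like cells (horizontal axis, TMM scaled) for the 31 genes past an edgeR adjusted p of 0.05, with the fitted value and its SE (black) and each arm's own ratio (open points). Most arms lie on one side of 0, and the run 1 arm at 0 mM is on the other side for MRPL24, MRPL55 and MRPL21 and far out for MRPS26 at -0.88.

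The 3 paralogous MRPS18 proteins, which are related to a single bacterial protein, were followed as a family. MRPS18C, in the small subunit, had 165, 143, 184 and 181 CPM in TE-like cells and 125, 126, 118 and 115 CPM in Epi-like cells (edgeR adjusted p = 0.000219). MRPS18A, in the large subunit, had 51.2, 64.7, 59.2 and 48.4 CPM in TE-like cells, against 41.8, 42.4, 40.6 and 38.5 CPM in Epi-like cells (0.43 ± 0.11), and passed with TMM only. MRPS18B, in the small subunit, had 77.5, 46.9, 85.1 and 99.8 CPM in TE-like cells, against 71.6, 77.8, 75.7 and 78.6 CPM in Epi-like cells. Its classes overlapped and it did not pass (0.11 ± 0.12, edgeR adjusted p = 0.479, and -0.11 on raw totals). None of the 3 passed by dose in either class.

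Of the 5 best counted genes, MRPL18 and MRPS23 were lower in TE-like cells, as described. MRPL51 had 498, 496, 526 and 462 CPM in TE-like cells and 394, 390, 405 and 395 CPM in Epi-like cells, and MRPL47 had 326, 335, 343 and 315 CPM, against 269, 294, 275 and 272 CPM. Both were without overlap between classes and passed with TMM but not on raw totals. MRPL20, with 266, 239, 272 and 259 CPM in TE-like cells and 249, 244, 249 and 241 CPM in Epi-like cells, did not pass (0.08 ± 0.08, and -0.13 on raw totals).

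Promoter sequences are shown for genes on which these comparisons turn, namely 2 that were higher (MRPL52, MRPL40) and 2 that were lower in TE-like cells (MRPL18, MRPS23) and 3 that were lower at 4 mM in Epi-like cells (MRPL41, MRPS12, MRPS17). Each is the stretch of 100 bases (89 for MRPL52) that ends at the base before the annotated start, 5′ to 3′ on the gene's strand, from RefSeq on GRCh38.p14. Capitals mark matches to CCGGAAG (an ETS motif), GCGC, any 2 bases and GCGC (an NRF1 motif), AAGATGGC (a YY1 motif), CCAAT or CACGTG (an E-box) on either strand. The stretches are chr14:22829798-22829886 (plus strand) for MRPL52, chr22:19432445-19432544 (plus) for MRPL40, chr6:159789712-159789811 (plus) for MRPL18 and chr17:57850045-57850144 (minus) for MRPS23. Those of MRPL41, MRPS12 and MRPS17 are chr9:137551779-137551878, chr19:38930844-38930943 and chr7:55951777-55951876 (all plus).
MRPL52: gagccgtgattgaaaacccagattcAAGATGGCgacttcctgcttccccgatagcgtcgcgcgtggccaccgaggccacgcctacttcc
MRPL40: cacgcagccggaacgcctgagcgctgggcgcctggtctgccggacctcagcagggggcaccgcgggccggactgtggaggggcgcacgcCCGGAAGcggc
MRPL18: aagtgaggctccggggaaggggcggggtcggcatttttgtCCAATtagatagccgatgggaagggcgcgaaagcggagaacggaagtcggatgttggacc
MRPS23: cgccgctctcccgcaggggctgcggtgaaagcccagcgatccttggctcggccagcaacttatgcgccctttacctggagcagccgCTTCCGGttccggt
MRPL41: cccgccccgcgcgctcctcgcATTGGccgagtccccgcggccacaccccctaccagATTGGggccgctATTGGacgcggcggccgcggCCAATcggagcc
MRPS12: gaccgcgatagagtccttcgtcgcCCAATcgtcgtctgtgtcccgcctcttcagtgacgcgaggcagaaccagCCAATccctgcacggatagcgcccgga
MRPS17: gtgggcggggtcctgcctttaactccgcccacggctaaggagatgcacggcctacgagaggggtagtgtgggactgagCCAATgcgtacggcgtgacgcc

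The stretches of MRPL40 and MRPS23, which differed between the classes in opposite directions, each hold 1 ETS match close to the start. The stretches of MRPL41, MRPS12, MRPS17 and MRPL18 hold CCAAT matches, 4 of them in MRPL41. Of the 7 genes lower at 4 mM in Epi-like cells, 6 had a promoter in the table, and over the 250 bases before the start CCAAT stood in 3 of these and not in the other 3 (MRPS2, MRPL34 and MRPL36). Over the 250 bases before the start, 69 of the 78 genes could be matched by symbol, and 36.2% of them held the ETS motif, against 8.52% of 35116 promoters in the table. The YY1 motif stood in 7.25% against 1.36%, the NRF1 motif in 14.5% against 7.16%, the E-box in 11.6% against 6.34% and CCAAT in 30.4% against 32.0%. A gene was counted if any of its listed starts held the motif, whereas over all promoters each start was counted singly. This can raise the shares of the set, since some of its genes have several starts. No overlapping matches occurred among the printed stretches. A match describes letters only, and binding of any factor was not measured.

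Many of these genes start back to back with another gene. In the GENCODE annotation, 18 of the 78 (23.1%) had the start of another protein-coding gene on the opposite strand within 1 kb upstream, against 9.06% of all coding genes. MRPL52 starts 59 bases from SLC7A7, an amino acid transporter gene, which was itself higher in TE-like cells (log2 2.34 ± 0.12, edgeR adjusted p = 4.75e-12). MRPL18 starts 109 bases from TCP1, a subunit gene of the cytosolic chaperonin, which was lower in TE-like cells (-0.34 ± 0.08, edgeR adjusted p = 0.00219). MRPL36 and its neighbour NDUFS6, a subunit of respiratory complex I, were both higher (0.55 and 0.34). Of the 7 genes called between the classes that have such a neighbour, these were the 3 whose neighbour passed. The neighbours of MRPL13 (MTBP, 0.02 ± 0.28), MRPL47 (NDUFB5, 0.10 ± 0.09), MRPS18C (HELQ, -0.07 ± 0.24) and MRPL21 (IGHMBP2, -0.05 ± 0.32) did not pass. Over all 13174 genes tested in this contrast, 22.5% were higher and 25.6% lower, so that 3 of 7 is no larger a share. A shared cause within these pairs was not tested. MRPS12 starts 181 bases from SARS2, the mitochondrial seryl-tRNA synthetase gene, which had a log2 difference by dose in Epi-like cells within its error (-0.03 ± 0.08, edgeR adjusted p = 0.859).

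Other steps of mitochondrial gene expression were read from lists beside the set. By dose, 0 genes of the 6 lists passed edgeR's test in TE-like cells. At an unadjusted p under 0.05 the only list with more than 1 gene was that of the 13 mitochondrially encoded mRNAs. Of these, 6 were lower and 0 higher, beside 5.05% of all genes that were lower and 4.14% that were higher. Their sum was lower at 4 mM in run 1 (38984 CPM, against 59026 CPM in the 18 cells at 0 mM). It was higher at 4 mM in run 2 (42210 CPM, against 39324 CPM), so that the runs disagreed. In Epi-like cells C12orf65, a ribosome rescue factor, was higher at 4 mM (0.38 ± 0.08) and MTFMT, which formylates the initiator tRNA, was lower (-0.28 ± 0.09), out of 14 translation factors. Of 25 genes for ribosome assembly and rRNA modification, the rRNA methyltransferase MRM3 was higher (0.32 ± 0.08) and TFB1M, which methylates the small-subunit rRNA, was lower (-0.29 ± 0.08). Of 20 mitochondrial tRNA synthetases, AARS2 was lower (-0.29 ± 0.07). Over all 17014 genes tested in Epi-like cells, 5.2% were higher and 3.49% lower, so that these few calls lie near the general share. They also rest on the run term, without which edgeR called 15 of all genes higher and 1 lower. None of the 18 genes for mitochondrial transcription and RNA handling, the 6 other ribosome proteins or the 13 mitochondrially encoded mRNAs passed in Epi-like cells in edgeR with the run term. On raw totals 3 of these mRNAs were lower at 4 mM in Epi-like cells and 2 in TE-like cells, beside 4.00% and 0.923% of all genes.

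Between the classes, the counts of these lists are to be read beside the 22.5% of all genes that were higher and the 25.6% that were lower. Of the tRNA synthetases, 4 of 20 were lower in TE-like cells and none was higher, which is no larger a share than that over all genes, with AARS2 at -1.997 ± 0.17 (edgeR adjusted p = 6.64e-09), LARS2 at -0.88 ± 0.19 and EARS2 at -0.63 ± 0.20. Of 25 assembly genes, 4 were higher and none lower, a share of higher genes below that over all genes, with the largest differences in the GTPase MTG2 (0.89 ± 0.17), RBFA (0.44 ± 0.11) and ERAL1 (0.37 ± 0.14), 2 factors of small-subunit maturation. Of 13 translation factors tested, GUF1 (0.59 ± 0.12), MTRF1L (0.50 ± 0.14) and MTIF3 (0.44 ± 0.12) were higher and C12orf65 was lower (-0.48 ± 0.14). AURKAIP1, a further small-subunit protein, was higher (0.47 ± 0.08), the only one of 6 other ribosome proteins to pass. Of 18 genes for transcription and RNA handling, SSBP1 (0.29 ± 0.07) and TRMT10C (0.27 ± 0.09) were higher and GRSF1 was lower (-0.28 ± 0.10).

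The mRNAs that this ribosome translates were higher in TE-like cells for 10 of 13, led by MT-ND4L (0.51 ± 0.09), MT-ND3 (0.41 ± 0.07) and MT-ND5 (0.40 ± 0.07), all subunits of complex I. On raw totals 3 of the 13 were higher and 1 lower, so that this count too depends on the scaling. In plain CPM the 13 summed to 38984, 59026, 42210 and 39324 in TE-like cells (arms in the order given), against 44302, 46139, 43115 and 42253 in Epi-like cells. Only the run 1 arm at 0 mM, with 18 TE-like cells and a median mitochondrial share of 6.104%, stood above its Epi-like cells.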

How the data were processed

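The data were 10x Genomics 3′ single-cell libraries of 2 pooled capture runs. The unit deposited by the authors is raw UMI counts. Reads had been converted with bcl2fastq 2.20.0.422 and counted on GRCh38 by Cell Ranger 6.1.2, with Seurat 4.3.0 used afterwards, according to the submitters' processing notes. Hashtag counts stand in the same matrices, and the culture and dose of each hashtag came from the deposited hashtag tables.

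Seurat 5.3.0 in R 4.3.3 called hashtags (HTODemux, quantile 0.99), which gave 6012 and 10400 singlets in runs 1 and 2, and set aside 512 and 1142 hashtag doublets and 2907 and 3591 negative barcodes. Doublets within 1 hashtag were not removed. The study's limits were applied to singlets, namely a mitochondrial share of 15% or less and 7000 (run 1) or 5000 (run 2) UMIs or more. Counts were summed per arm and class. TE-like sums held 456611 to 2981693 UMIs, Epi-like sums 11818706 to 81804868 and aggregate sums 30770380 and 36113833.

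edgeR 4.0.16 was used with TMM factors, filterByExpr, a quasi-likelihood fit and Benjamini-Hochberg adjustment over all genes tested. The terms were the run (4 mM against 0 mM within a class, 1 residual degree of freedom) or the arm (TE-like against Epi-like). The scripts were tested on simulated data. Per-arm ratios add 0.5 CPM to both sides. Poisson intervals of CPM and conditional binomial intervals of ratios are exact, at 95%, and cover counting error only. DESeq2 1.42.0 and other filters, scalings, class borders and left-out arms served as alternatives. Gene positions are from GENCODE on GRCh38, by gene identifier, and promoters from RefSeq.

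Genes were named if past an adjusted p of 0.05 with 1 sign in both runs (dose) or all 4 arms (class), or if among the 5 best counted. In comparisons with 1 arm per group up to 5 were named in each direction at 20 CPM or more whose interval left out 1. MRPS36, the MRPS18 paralogues, MRPL23 and up to 3 genes per pathway list were added, as were genes outside the rule that were chosen after their values were seen (the TE-like genes with a low unadjusted p, MRPL24, MRPL53, MRPL55, MRPL21 and neighbouring genes). The members, lists and comparisons were chosen with earlier results of these data known. One further trophectoderm marker is not reported here and was left out of the marker sums.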

Additional observations from a re-analysis of the deposited data

Results flagged for a closer look

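The within-arm log2 ratio of TE-like to Epi-like cells was checked in the 4 arms for each of the 31 genes past the threshold, and in 1 of them a single arm stood far from the rest. For MRPS26, a mitochondria-specific small-subunit protein, that ratio was -0.88 in the run 1 arm at 0 mM and -0.14, -0.14 and -0.20 in the run 1 arm at 4 mM and the run 2 arms at 4 and 0 mM. Chance alone marks about 1 in 20 such groups of 4. The outlying value rests on 50 UMIs in 18 TE-like cells, and without this arm MRPS26 no longer passed.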

How the results depend on the processing

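The limits are few arms (2 per dose in each class, 1 per dose in aggregates), 18 TE-like cells in the run 1 arm at 0 mM, and the scaling between the classes. In Epi-like cells the count of genes lower at 4 mM was 7, and 1 with DESeq2, 0 with no replicate block (the run left out of the model) and 0 to 0 over the 4 fits that each left out 1 arm, which also lacked the block and so do not test a single arm. It was 6 to 10 under the other alternatives, and all hashtag singlets gave 3 higher genes in place of 0. No call was made in TE-like cells by dose under any alternative run. In TE-like against Epi-like cells, raw totals without TMM gave 13 higher and 19 lower in place of 23 and 8, with a median log2 of -0.0516 in place of 0.16. Leaving out 1 arm gave 16 to 26 higher and 4 to 8 lower, and leaving the replicate block out moved no such count by over 1.5 times. The cause of these shifts was not tested.

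The summed set was lower at 4 mM in all 5 pairs under each setting. With all hashtag singlets the change was -10.0% in aggregates and -2.80 and -2.66% in Epi-like cells of runs 1 and 2, and 5 genes in place of 9 were higher in aggregates. With mitochondrially encoded genes left out it was -6.28% in aggregates, and with TMM factors over the 10 sums, added after seeing the data, -6.33% in aggregates and -7.93 and -1.02% in Epi-like cells. For MRPS36 by dose in TE-like cells, the log2 difference of -0.04 turned to 0.0167 with all singlets and 0.0189 at a stricter hashtag quantile, and to 0.18 and 0.10 without the run 1 arm at 0 mM or 4 mM. In TE-like against Epi-like cells, MRPL20 (0.08) turned to -0.13 on raw totals and -0.00718 without the filter on low counts. MRPS18B (0.11) turned to -0.11 on raw totals, and lay between -0.00374 and 0.19 when 1 arm was left out. The called genes kept their sign under each alternative run. With TMM factors of the 8 blastoid sums, added after seeing the data, the dose change of the sum was -1.08% in TE-like cells of run 1 and -9.80 and -1.96% in Epi-like cells of runs 1 and 2, and the sum in TE-like against Epi-like cells was higher by 10.8 and 1.05% at 4 and 0 mM in run 1 and by 11.9 and 11.7% at 4 and 0 mM in run 2, in place of lower.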
